A study of Mus musculus with 12 samples.

Results

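The serpins described here are 8 genes of the superfamily of serine protease inhibitors, measured in dendritic cells and macrophages grown from mouse bone marrow: Serpinb1a, Serpinb2, Serpinb6a, Serpinb6b, Serpinb8, Serpinb9, Serpinb9b and Serping1. They were picked by name with earlier results of these data known, so counts over the 8 describe a picked set, and each was read through the probe set that carries its symbol alone in the platform annotation, with the highest mean over the 12 arrays where there were several. Each of the 8 had 1 such probe set, so they are 8 of the 19938 genes tested and 8 of the 48 serpins that could be named on the array. C57B/6 marrow of tibia and femur was grown for 6 days with 20 ng/ml recombinant GM-CSF in every group. The 4 groups, with 3 arrays each, were GM-DC (cells labelled dendritic) given 10 ng/ml lipopolysaccharide (LPS) for 4 hours, GM-DC left unstimulated, GM-MF (cells labelled macrophage) given the same LPS, and GM-MF left unstimulated. LPS is a bacterial cell wall component sensed by Toll-like receptor 4. The labels state neither how the cell types were separated nor whether the replicates were grown from different mice, so p-values cover only the variation among these arrays, which can be technical.

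A serpin works once. It offers a loop to its target protease as bait, and when the protease cuts the loop the inhibitor snaps into a new fold and keeps the protease bound to it by a covalent bond. The genes named Serpinb belong to clade B, whose proteins lack a classical secretion signal and mostly stay inside the cell, where they guard it against proteases that leak from granules or lysosomes or are delivered by killer lymphocytes. Serping1 encodes the secreted C1 inhibitor, which blocks the proteases that start the classical complement pathway and the contact system of blood.

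Values are log2 expression as deposited, so a difference of 1 is 2-fold. The array medians lay between 4.41 and 4.54, no background call was made, and a value near or under them does not show absence. Folds against such values are ratios of signals. The summed signal of 5 dendritic cell markers was 13.2 on every GM-DC array with LPS (log2 of the sum) and 13 to 13.2 on unstimulated GM-DC arrays, against 9.30 to 10.4 in GM-MF with LPS and 7.58 to 8.32 in unstimulated GM-MF. The 5 macrophage markers summed to 8.28 to 8.69 and 8.24 to 8.46 in GM-DC with and without LPS, against 12.7 to 12.9 and 12.5 to 12.8 in GM-MF with and without LPS. Markers of other cells that such cultures can hold also differed. The 10 neutrophil and granule markers summed to 10.7 to 10.9 in GM-DC with LPS and 10.8 to 11 in unstimulated GM-DC, against 11.7 to 11.8 in GM-MF with LPS and 11.3 to 11.5 in unstimulated GM-MF, with 3 to 5 of the 10 under the array median, Ly6g among them by its group means (3.54 to 4.34). S100a8 and S100a9 weighed most in this sum, with group means of 9.40 to 10.9 and 9.71 to 10.3. By limma at adjusted p under 0.05, 2 of the 10 were higher and 5 lower in GM-DC with LPS. Without LPS 2 were higher and 2 lower, beside 36.3% of all genes called with LPS and 34.2% without LPS. The 2 higher were Mpo (0.87 with LPS, 0.73 without LPS) and Prtn3 (2.15 and 2.03). Among the lower were S100a8 (−1.50 with LPS, −0.94 without LPS), Camp with LPS (−0.65) and Ly6g without LPS (−0.69). The median of the 10 was −0.46 with LPS and −0.15 without LPS. The 5 eosinophil markers summed to 6.14 to 6.26 in GM-DC with LPS and 6.15 to 6.84 in unstimulated GM-DC, against 8.79 to 8.91 in GM-MF with LPS and 8.42 to 8.54 in unstimulated GM-MF. Of these 5, 2 were lower and 0 higher in GM-DC with LPS, and 2 lower and 1 higher without LPS, beside the same shares of all genes. Ear6 was lower in GM-DC by −4.57 with LPS and −4.42 without LPS, and Siglecf by −0.36 and −0.46. Prg2 was higher in unstimulated GM-DC by 0.91 (adjusted p = 0.0378). Ear6 weighed most in the GM-MF sums, with group means of 8.64 with LPS and 8.21 without LPS. The defining gene Epx averaged 3.10 to 3.38, under the array medians. The 8 mast cell and basophil markers summed to 8.36 to 8.68 in GM-MF with LPS and 6.39 to 6.73 in unstimulated GM-MF, with 7 of the 8 under the array median. In GM-DC they summed to 6.39 to 6.58 with LPS and 6.27 to 6.56 without LPS. Hdc averaged 8.15 in GM-MF with LPS and 4.73 in unstimulated GM-MF. It was the only 1 of the 8 called for LPS in GM-MF, and 7 were not called, beside 17.4% of all genes called. The 4 B cell markers summed to 6.13 to 6.39 in GM-DC with LPS and 6.01 to 6.21 in unstimulated GM-DC, against 5.83 to 5.90 in GM-MF with LPS and 5.76 to 5.99 in unstimulated GM-MF, without overlap between the cell types in either condition, and 3 or 4 of the 4 were under the array median. T and NK cell markers summed to 6.34 to 6.67 over the 12 arrays and stromal markers to 6.83 to 7.28. The part of such cells in the serpin values was not tested. In bulk RNA, fewer cells of a type and less RNA per cell cannot be told apart. Probe sequences were not used here, so cross-hybridisation between close serpin copies was not tested.

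The DNA just upstream of 5 of the genes is shown because these 5 differed most between the cell types in either condition: Serpinb2 and Serpinb8, high in GM-MF, and the neighbours Serpinb6b, Serpinb9 and Serpinb9b, high in GM-DC. Each window holds 300 bases, 250 before to 50 after a RefSeq start, 5′ to 3′ on the plus strand of GRCm38.p6, and capitals mark matches to short motifs that were chosen after the data were seen. In Serpinb2 (chr1:107511173-107511472) the capitals are TGANTCA, a loose form of the AP-1 site, at position −94 from the start, and TATAAA, the TATA box, at −29. In Serpinb8 (chr1:107589756-107590055) they are the same AP-1 letters at −23 and 14, and GGG, any 5 bases and CC, a loose form of the NF-kB site, on the minus strand at −53. In Serpinb6b (chr13:32965011-32965310) they are GAGGAA, a core of sites of the myeloid factor PU.1, at −146 and −106. In Serpinb9 (chr13:33004291-33004590) they are GAAA, any 2 bases and GAAA, the core of the interferon-stimulated response element, on the minus strand at −46. In Serpinb9b (chr13:33027164-33027463) they are the loose NF-kB letters, which read on both strands at −35, and the PU.1 core on the minus strand at −44.
Serpinb2: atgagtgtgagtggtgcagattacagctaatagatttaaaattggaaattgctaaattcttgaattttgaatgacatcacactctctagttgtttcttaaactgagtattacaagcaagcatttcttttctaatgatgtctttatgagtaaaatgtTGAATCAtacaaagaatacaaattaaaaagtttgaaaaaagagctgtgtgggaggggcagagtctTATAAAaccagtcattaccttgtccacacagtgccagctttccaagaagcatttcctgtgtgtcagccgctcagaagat
Serpinb8: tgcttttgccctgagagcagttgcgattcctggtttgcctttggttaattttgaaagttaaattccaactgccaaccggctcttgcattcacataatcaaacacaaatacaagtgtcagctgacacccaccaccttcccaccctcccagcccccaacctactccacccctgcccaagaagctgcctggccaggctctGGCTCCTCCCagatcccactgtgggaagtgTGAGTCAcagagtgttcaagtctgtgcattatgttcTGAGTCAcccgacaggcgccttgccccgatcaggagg
Serpinb6b: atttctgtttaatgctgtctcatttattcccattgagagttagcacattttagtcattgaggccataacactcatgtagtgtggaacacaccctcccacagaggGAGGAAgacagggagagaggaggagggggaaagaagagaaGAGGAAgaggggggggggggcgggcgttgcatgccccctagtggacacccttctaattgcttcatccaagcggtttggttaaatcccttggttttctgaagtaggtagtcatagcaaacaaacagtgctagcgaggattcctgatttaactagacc
Serpinb9: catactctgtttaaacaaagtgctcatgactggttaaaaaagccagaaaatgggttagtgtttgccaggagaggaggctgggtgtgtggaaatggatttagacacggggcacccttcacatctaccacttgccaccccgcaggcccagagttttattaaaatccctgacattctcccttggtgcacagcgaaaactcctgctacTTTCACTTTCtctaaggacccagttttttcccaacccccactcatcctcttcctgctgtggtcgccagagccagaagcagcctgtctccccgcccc
Serpinb9b: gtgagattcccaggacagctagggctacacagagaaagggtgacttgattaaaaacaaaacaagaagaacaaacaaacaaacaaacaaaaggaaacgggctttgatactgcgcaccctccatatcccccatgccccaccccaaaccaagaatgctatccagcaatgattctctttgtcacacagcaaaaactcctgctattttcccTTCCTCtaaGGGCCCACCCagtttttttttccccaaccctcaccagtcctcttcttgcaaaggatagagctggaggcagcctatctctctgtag

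Such matches are common. Of 32851 windows of the same length in the RefSeq table, searched on both strands, 50.8% held the NF-kB letters, 28.3% the PU.1 core, 13.6% TATAAA, 7.81% the AP-1 letters and 3.44% the interferon-stimulated response element core. The palindrome TGACGTCA, the cyclic AMP response element, was found in 1.79% of all windows and in 0 of the 8 windows found for 6 of the serpins. Serpinb6b, Serpinb9 and Serpinb9b follow each other in this order along chromosome 13 with no other Serpinb gene between them. The windows of Serpinb9 and Serpinb9b shared 58.1% of aligned bases, and the other 14 pairs among the 6 genes shared 42.0% to 48.0%. Windows of Serpinb6a, which was called in no comparison, held some of the same letters. These were the interferon-stimulated response element core at −84, the PU.1 core at 40 and the NF-kB letters at 20 and 26. A match is a description of letters and not a binding site.

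The 8 serpins split by cell type. With and without LPS, GM-DC had more Serpinb6b, Serpinb9 and Serpinb9b than GM-MF and less Serpinb2, Serpinb8 and Serping1, while Serpinb6a did not pass the test in either condition. Serpinb1a was lower in GM-DC with LPS and higher in GM-DC without it. The differences spanned 61.8-fold lower (Serpinb2) to 59.6-fold higher (Serpinb6b) in unstimulated GM-DC relative to unstimulated GM-MF. Without unstimulated GM-DC replicate 3 the log2 difference of Serpinb2 was −6.56, against −5.95 with all arrays.

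In counts, 7 of the 8 were called between GM-DC and GM-MF with LPS, 3 higher and 4 lower (limma, Benjamini-Hochberg adjusted p under 0.05 over all 19938 genes). The background is broad, since 36.3% of all genes were called, 20.9% higher and 15.4% lower in GM-DC. Without LPS 7 were called, 4 higher and 3 lower, beside 34.2% of all genes, 18.0% higher and 16.2% lower. The split of all called genes moved with the scaling, with 48.7% of them higher in GM-DC after cyclic loess, against 57.6% as deposited, with LPS, and 47.5% after median centring and 48.7% after cyclic loess, against 52.6% as deposited, without LPS. At 2-fold or more, 7 serpins were called with LPS and 6 without it, beside 12.9% and 12.7% of all genes. The 3 arrays per group did not overlap for 7 serpins in either condition, as for 44.9% of all genes with LPS and 44.4% without LPS. The median absolute log2 difference was 2.66 for the 8 serpins with LPS and 2.70 without LPS, and 0.208 and 0.197 for all genes. The signed medians were −0.62 with LPS and 0.79 without LPS for the serpins, against 0.00183 and −0.011 for all genes.

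LPS moved fewer of them in GM-DC than in GM-MF by count. In GM-DC, 3 of 8 rose and 0 fell (Serpinb9b, Serpinb9 and Serpinb2), beside 9.72% of all genes called, 5.23% higher and 4.49% lower. In GM-MF, 5 rose (Serpinb1a, Serpinb9, Serpinb6b, Serping1 and Serpinb9b) and Serpinb8 fell, beside 17.4% of all genes, 6.54% higher and 10.8% lower. Of all genes called in GM-MF, 52.4% were higher after cyclic loess, against 37.7% as deposited. No difference in GM-DC was below 0. At 2-fold or more, 3 serpins were called in GM-DC and 5 in GM-MF, beside 2.08% and 3.17% of all genes, and the groups did not overlap for 5 and 7 serpins, beside 24.3% and 31.5%. The median log2 difference of the 8 was 0.53 in GM-DC and 1.19 in GM-MF, against −0.00788 and −0.018 for all genes. The difference between the LPS responses, which is the test of whether the cell types responded unequally, was called for 5 of 8 (Serpinb1a, Serpinb6b, Serpinb8, Serpinb9 and Serpinb9b), 2 higher and 3 lower in GM-DC, beside 7.59% of all genes, 4.53% higher and 3.06% lower. This count was 3 without GM-DC LPS replicate 1, without GM-MF LPS replicate 1, and with adjustment over all probe sets, and the count for LPS in GM-DC was 5 with a replicate block within each cell type, an alternative added after the data were seen. The median of these differences was −0.43 for the 8 and 0.021 for all genes.

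**Figure D1:**
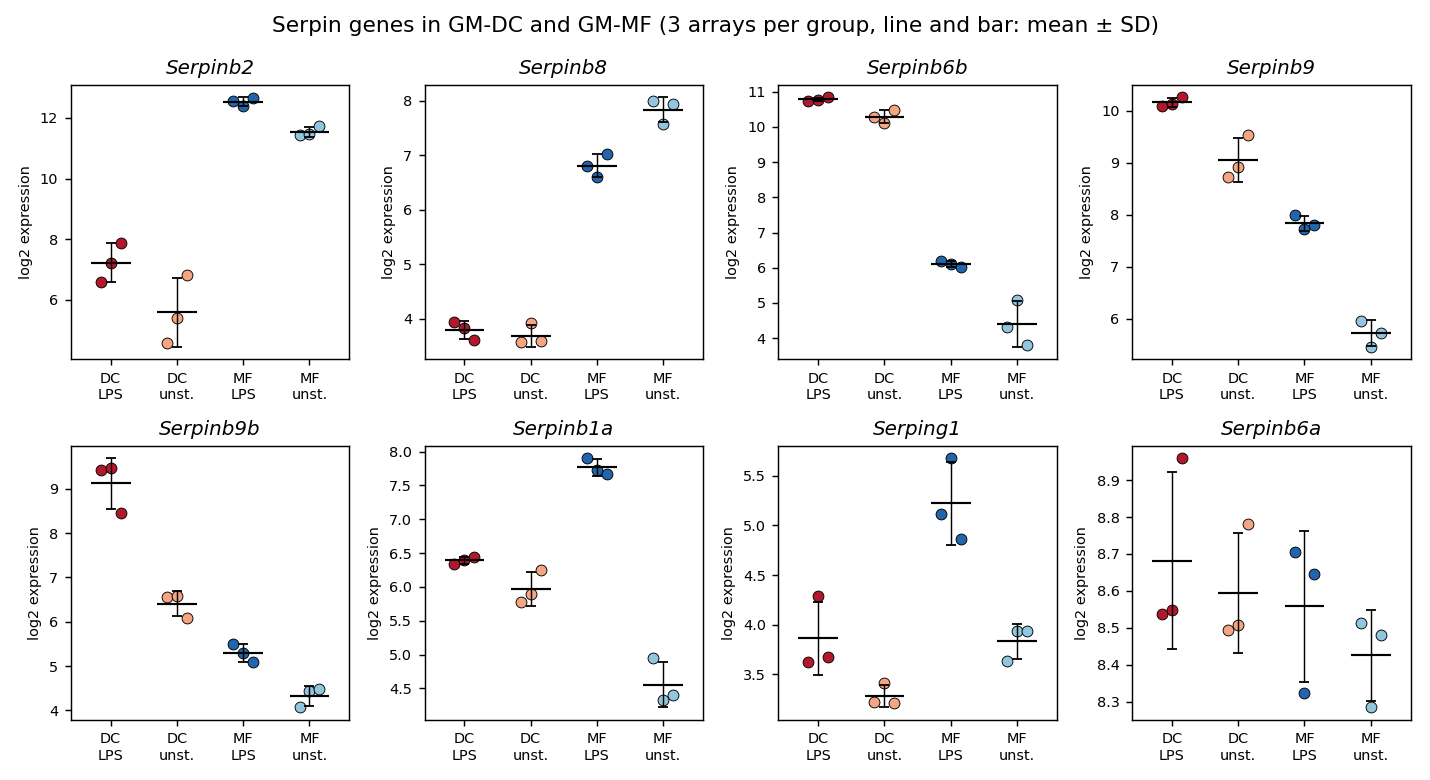
Log2 expression of each of the 8 serpins on each of the 12 arrays (points, replicates 1 to 3 side by side) in GM-DC with LPS, unstimulated GM-DC, GM-MF with LPS and unstimulated GM-MF, with lines and bars for the mean ± SD of each group. Serpinb2 and Serpinb8 sit higher in GM-MF, Serpinb6b, Serpinb9 and Serpinb9b higher in GM-DC, and all 4 groups overlap for Serpinb6a.

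Serpinb2, also called plasminogen activator inhibitor 2, inhibits urokinase and is a well known product of activated macrophages. It had 6.59, 7.23 and 7.88 in GM-DC with LPS and 4.58, 5.39 and 6.82 in unstimulated GM-DC, against 12.55, 12.39 and 12.67 in GM-MF with LPS and 11.43, 11.46 and 11.74 in unstimulated GM-MF. Every GM-MF array was above every GM-DC array, and in GM-DC the array numbered 3 was the highest with and without LPS. In replicates 1, 2 and 3 of unstimulated GM-DC the macrophage marker sum was 8.24, 8.46 and 8.26, the eosinophil sum 6.15, 6.20 and 6.84, and the neutrophil and granule sum 10.8, 10.9 and 11. Replicate 3 was thus the highest in the eosinophil sum and in the neutrophil and granule sum. It was also the highest in the dendritic cell (13.2), T and NK cell (6.45) and B cell (6.21) sums. In the macrophage, stromal, and mast cell and basophil sums it was not. Among eosinophil markers, Prg2 had 4.52, 4.63 and 5.98 in replicates 1, 2 and 3, and Ear6 had 3.46, 4.04 and 3.86. The part of any such signal in the Serpinb2 value of replicate 3 was not tested.

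Serpinb2 was lower in GM-DC by a log2 difference of −5.30 ± 0.41 with LPS (SE of the fit, 39.4-fold, adjusted p = 5.43e-08) and −5.95 ± 0.41 without LPS (adjusted p = 1.52e-08). It ranked 13 of all genes by size among differences toward GM-MF in unstimulated cells. LPS raised it in GM-DC by 1.64 ± 0.41 (3.11-fold, adjusted p = 0.019), although the 3 arrays with LPS overlapped the 3 without. Leaving out 1 array moved it between 1.13 and 2.25, the highest without unstimulated GM-DC replicate 3 (adjusted p = 0.000202). The call was lost without unstimulated GM-DC replicate 1 (1.13, adjusted p = 0.087), unstimulated GM-DC replicate 2 (adjusted p = 0.0738), GM-DC LPS replicate 2 (0.062) or GM-DC LPS replicate 3 (0.0825), over all probe sets (0.0772), and when the GM-DC arrays alone were fitted (0.0948). In GM-MF the groups did not overlap and the LPS difference was 0.99 ± 0.41 (1.99-fold, adjusted p = 0.129). It passed with the replicate number as a block (adjusted p = 0.0336), when the GM-MF arrays alone were fitted (0.000438), and without unstimulated GM-DC replicate 3 (0.0172). The SE of the main fit is pooled over the 4 groups. The SD with and without LPS was 0.65 and 1.13 in GM-DC, against 0.14 and 0.17 in GM-MF. The difference of the responses was 0.65 (95% interval −0.60 to 1.90, adjusted p = 0.669), so the responses were not shown to differ, nor to be alike.

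The genes around Serpinb2 in plasminogen activation were the urokinase gene Plau, its receptor Plaur and the tissue plasminogen activator Plat. Of the 7 genes in this list, 1 was higher (Plat) and 2 lower (Plau, Plaur) in GM-DC in either condition, beside the same shares of all genes as above, with list medians of 0.019 with LPS and 0.00834 without LPS. Plau had 6.39, 6.68 and 5.92 in GM-DC with LPS and 4.83, 4.81 and 4.68 in unstimulated GM-DC, against 8.36, 7.97 and 8.61 in GM-MF with LPS and 9.73, 9.58 and 9.99 in unstimulated GM-MF. LPS thus moved Plau in opposite directions, up by 1.56 ± 0.19 in GM-DC (adjusted p = 5.44e-05) and down in GM-MF (−1.45 ± 0.19, adjusted p = 5.64e-05). The difference of these responses was 3.01 ± 0.26 (adjusted p = 4.53e-06).

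Plaur was lower in GM-DC by −3.14 ± 0.18 with LPS and −4.70 ± 0.18 without LPS (adjusted p = 2.28e-09 and 2.59e-11). Plat went the other way, with 7.91, 7.76 and 7.67 in GM-DC with LPS and 5.30, 4.91 and 5.68 in unstimulated GM-DC, against 5.60, 5.07 and 5.18 in GM-MF with LPS and 4.23, 4.33 and 3.58 in unstimulated GM-MF. It was the activator that was higher in GM-DC, by 2.50 ± 0.21 with LPS and 1.25 ± 0.21 without LPS (adjusted p = 1.48e-07 and 0.00021). LPS raised Plat in GM-DC by 2.48 ± 0.21 (adjusted p = 1.82e-06) and in GM-MF by 1.24 ± 0.21 (adjusted p = 0.00071). LPS called 3 of the 7 list genes higher in GM-DC, with a list median of 0.27, and 1 higher and 1 lower in GM-MF, with a list median of −0.00686. Of all genes, 9.72% were called for LPS in GM-DC and 17.4% in GM-MF.

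Serpinb8 is known in human cells as an inhibitor of the proprotein convertase furin. It had 3.93, 3.83 and 3.61 in GM-DC with LPS and 3.56, 3.92 and 3.58 in unstimulated GM-DC, against 6.80, 6.59 and 7.02 in GM-MF with LPS and 7.99, 7.58 and 7.94 in unstimulated GM-MF. All 6 GM-DC values were under the array medians and overlapped between conditions, and in GM-MF every array with LPS was below every array without it. Serpinb8 was lower in GM-DC by −3.01 ± 0.15 with LPS (8.06-fold, adjusted p = 3.38e-10) and −4.15 ± 0.15 without LPS (17.7-fold, adjusted p = 1.06e-11).

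It was the only 1 of the 8 that LPS lowered at the threshold, in GM-MF, by −1.03 ± 0.15 (2.05-fold, adjusted p = 0.000154). In GM-DC the LPS difference was 0.10 ± 0.15 (adjusted p = 0.817), and the responses differed by 1.14 ± 0.21 (adjusted p = 0.00285). Its neighbour Serpinb10, which lies between Serpinb2 and Serpinb8 on chromosome 1, averaged between 2.30 and 2.82 in the 4 groups.

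Furin, the target protease, moved opposite to Serpinb8 in GM-MF. Furin had 7.97, 8.04 and 7.22 in GM-DC with LPS and 6.96, 7.03 and 7.03 in unstimulated GM-DC, against 9.77, 9.79 and 9.77 in GM-MF with LPS and 7.95, 8.04 and 7.79 in unstimulated GM-MF. LPS raised it in GM-MF by 1.85 ± 0.17 (adjusted p = 1.92e-06) and in GM-DC by 0.74 ± 0.17 (adjusted p = 0.00893). The GM-DC call was lost without GM-DC LPS replicate 1 (adjusted p = 0.0514), without GM-DC LPS replicate 2 (0.054) and in the fit of GM-DC arrays alone (0.0521). Of 7 measured proprotein convertases, 1 was higher and 2 lower in GM-DC in either condition, beside 36.3% of all genes called with LPS and 34.2% without LPS, with medians of 0.023 with LPS and −0.19 without LPS, and Furin was the only 1 that LPS changed at the threshold in either cell type.

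**Figure D2:**
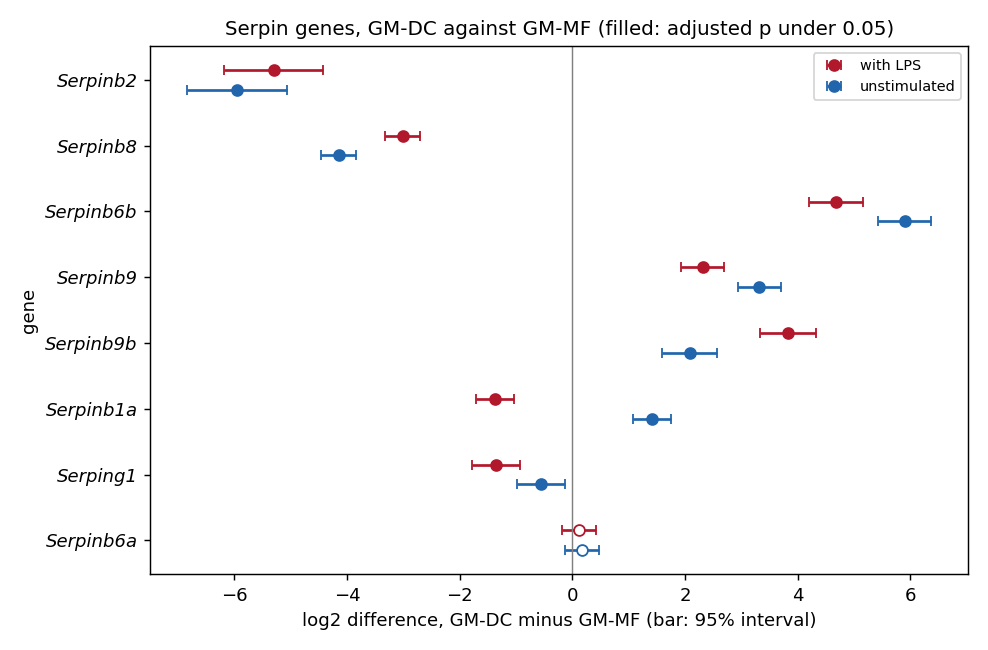
Log2 difference of GM-DC minus GM-MF for the 8 serpins, with LPS and without, with bars for the 95% interval of the limma fit and filled points for an adjusted p under 0.05. Serpinb6b, Serpinb9 and Serpinb9b lie to the side of GM-DC and Serpinb2, Serpinb8 and Serping1 to the side of GM-MF in both conditions, while Serpinb1a changes side.

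Serpinb9 is an inhibitor of granzyme B, the protease that killer lymphocytes inject into target cells, and is known to protect dendritic cells and lymphocytes. It had 10.09, 10.12 and 10.25 in GM-DC with LPS and 8.71, 8.91 and 9.52 in unstimulated GM-DC, against 8.0, 7.72 and 7.80 in GM-MF with LPS and 5.97, 5.47 and 5.73 in unstimulated GM-MF. The 4 groups did not overlap, in the order GM-DC with LPS, GM-DC, GM-MF with LPS, GM-MF. GM-DC exceeded GM-MF by 2.31 ± 0.18 with LPS (4.98-fold, adjusted p = 4.74e-08) and 3.32 ± 0.18 without LPS (10.0-fold, adjusted p = 7.91e-10).

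LPS raised Serpinb9 in both cell types, by 1.11 ± 0.18 in GM-DC (2.15-fold, adjusted p = 0.000777) and by 2.12 ± 0.18 in GM-MF (4.34-fold, adjusted p = 1.07e-06). In GM-MF the dendritic marker sum was also higher with LPS (9.30 to 10.4, against 7.58 to 8.32). There 3 of its 5 genes were called higher, beside 6.54% of all genes. The largest rises were of Ccr7 (2.47) and Fscn1 (1.82). Flt3 averaged 4.07 with LPS and 4.26 without LPS, and Dpp4 4.62 and 4.37. The part of these changes in the GM-MF rises of Serpinb9, Serpinb9b and Serpinb6b was not tested. The response of Serpinb9 was smaller in GM-DC by −1.01 ± 0.25 (adjusted p = 0.022). That difference lost its call without unstimulated GM-MF replicate 2 (adjusted p = 0.0529), GM-DC LPS replicate 1 (0.0543), GM-DC LPS replicate 2 (0.0522) or GM-MF LPS replicate 1 (0.0593), and over all probe sets (0.0739).

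Serpinb9b is a close relative of Serpinb9 and, in the mouse, an inhibitor of granzyme M. It had 9.43, 9.46 and 8.46 in GM-DC with LPS and 6.57, 6.59 and 6.07 in unstimulated GM-DC, against 5.49, 5.29 and 5.09 in GM-MF with LPS and 4.07, 4.43 and 4.48 in unstimulated GM-MF. The groups stood in the same order as for Serpinb9, again without overlap, and GM-DC replicate 3 was the lowest of its group in both conditions, where for Serpinb9 it was the highest. LPS raised Serpinb9b in GM-DC by 2.71 ± 0.23 (6.54-fold, adjusted p = 1.77e-06) and in GM-MF by 0.96 ± 0.23 (1.95-fold, adjusted p = 0.00816).

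The response of Serpinb9b was thus the larger in GM-DC, by 1.75 ± 0.33 (adjusted p = 0.00326), opposite in sign to that of Serpinb9. GM-DC exceeded GM-MF in Serpinb9b by 3.83 ± 0.23 with LPS (14.2-fold, adjusted p = 3.15e-09) and 2.08 ± 0.23 without LPS (4.24-fold, adjusted p = 2.8e-06).

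Serpinb6b is a mouse copy of the Serpinb6 family and lies next to Serpinb9. It had 10.74, 10.78 and 10.84 in GM-DC with LPS and 10.28, 10.12 and 10.49 in unstimulated GM-DC, against 6.19, 6.11 and 6.01 in GM-MF with LPS and 4.32, 5.08 and 3.80 in unstimulated GM-MF. The 4 groups did not overlap, and unstimulated GM-MF arrays were spread most (SD 0.642). Among these the highest, replicate 2, also had the highest dendritic marker sum, 8.32, beside 7.67 and 7.58 in replicates 1 and 3. Ccr7 (7.62) and Fscn1 (5.76) were highest in replicate 2 and Flt3 (3.99) was lowest there. The part of this in its Serpinb6b value was not tested.

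LPS raised Serpinb6b in GM-MF by 1.70 ± 0.22 (3.26-fold, adjusted p = 6.88e-05). In GM-DC the LPS difference was 0.49 ± 0.22 (adjusted p = 0.241), called when the GM-DC arrays alone were fitted (0.0324) and without unstimulated GM-MF replicate 2 (0.0344). With LPS, GM-DC exceeded GM-MF by 4.68 ± 0.22 (25.7-fold, adjusted p = 2.38e-10), against 5.90 ± 0.22 without LPS (adjusted p = 1.73e-11).

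The responses of Serpinb6b differed by −1.21 ± 0.31 (adjusted p = 0.0269). This call was lost in 7 of the 12 fits that left out 1 array: without unstimulated GM-DC replicate 1 (adjusted p = 0.053) or 3 (0.0629), unstimulated GM-MF replicate 1 (0.0645), GM-DC LPS replicate 1 (0.0615) or 2 (0.0593), and GM-MF LPS replicate 1 (0.0639) or 2 (0.0558). It was also lost over all probe sets (0.0929).

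Few genes of granule proteases, the kind that many clade B serpins block, were called. Of 21 listed serine proteases of granules, Prtn3, which encodes neutrophil proteinase 3, was higher in GM-DC and 20 were not called in either condition. Of all genes, 36.3% were called with LPS and 34.2% without LPS. The list medians were 0.00822 with LPS and 0.024 without LPS. Apart from Elane, Prtn3, Gzmm and Prss34, all averaged under the array medians in every group, which limits what these counts can show. LPS called 0 of the 21 in either cell type by limma, beside 9.72% of all genes in GM-DC and 17.4% in GM-MF. At an unadjusted p under 0.05 the count was 0 in GM-DC and 1 in GM-MF. The granzyme B gene Gzmb averaged 3.19 ± 0.14 in GM-DC with LPS and 3.36 ± 0.045 in unstimulated GM-DC, against 3.29 ± 0.29 in GM-MF with LPS and 3.10 ± 0.069 in unstimulated GM-MF (SD, n = 3 each), all under the array medians.

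**Figure D3:**
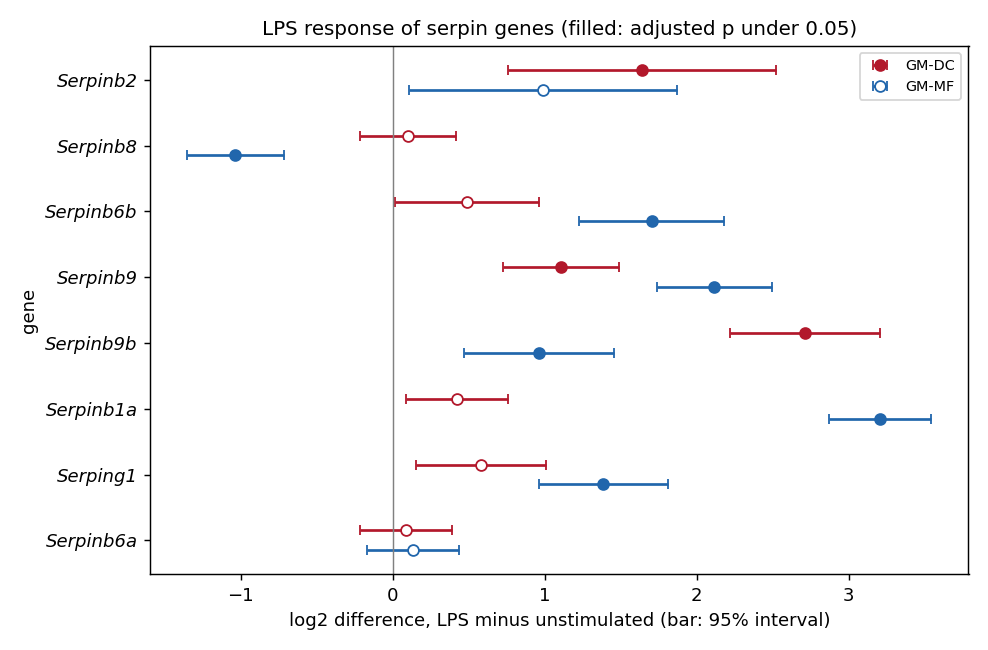
Log2 difference of LPS minus unstimulated for the 8 serpins, in GM-DC and in GM-MF, with bars for the 95% interval of the limma fit and filled points for an adjusted p under 0.05. Serpinb1a has its larger response in GM-MF (3.21) and Serpinb9b in GM-DC (2.71), and Serpinb8 lies below 0 in GM-MF.

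Serpinb1a is the mouse counterpart of the human monocyte and neutrophil elastase inhibitor, which blocks elastase, cathepsin G and proteinase 3. It had 6.34, 6.39 and 6.45 in GM-DC with LPS and 5.77, 5.89 and 6.25 in unstimulated GM-DC, against 7.90, 7.73 and 7.66 in GM-MF with LPS and 4.94, 4.33 and 4.40 in unstimulated GM-MF. GM-MF held both the highest group and the lowest, with both GM-DC groups between them, and no neighbours in this order overlapped. The gene was lower in GM-DC by −1.37 ± 0.16 with LPS (2.59-fold, adjusted p = 3.76e-06) and higher by 1.41 ± 0.16 without LPS (2.66-fold, adjusted p = 2.83e-06).

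LPS raised Serpinb1a in GM-MF by 3.21 ± 0.16 (9.24-fold, adjusted p = 5.48e-09), which ranked 20 among the rises of all genes there. In GM-DC the LPS difference was 0.43 ± 0.16 (adjusted p = 0.121), and with a replicate block within each cell type, an alternative added after the data were seen, its adjusted p was 0.0394. It was also called with array weights (0.0477), without unstimulated GM-DC replicate 3 (0.0418) and without unstimulated GM-MF replicate 1 (0.0462). The responses differed by −2.78 ± 0.22 (adjusted p = 2.34e-06), the largest difference of responses among the 8 serpins.

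Its copy Serpinb1b, which lies beyond Serpinb9b on chromosome 13, did not follow this pattern. Serpinb1b had 5.85, 5.40 and 5.47 in GM-DC with LPS and 4.20, 4.08 and 4.21 in unstimulated GM-DC, against 5.43, 5.16 and 5.18 in GM-MF with LPS and 3.96, 3.76 and 4.57 in unstimulated GM-MF. LPS raised it in both cell types, by 1.41 ± 0.18 in GM-DC (adjusted p = 8.52e-05) and 1.16 ± 0.18 in GM-MF (adjusted p = 0.000267), with a difference of responses of 0.25 (adjusted p = 0.705). Of the proteases that Serpinb1a can block, Prtn3 had 6.37, 6.34 and 6.33 in GM-DC with LPS and 6.17, 6.26 and 6.46 in unstimulated GM-DC, against 4.15, 3.85 and 4.60 in GM-MF with LPS and 4.19, 4.44 and 4.18 in unstimulated GM-MF. It was higher in GM-DC by 2.15 ± 0.15 with LPS and 2.03 ± 0.15 without LPS (adjusted p = 2.37e-08 and 4.57e-08).

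Serpinb6a, whose human counterpart inhibits cathepsin G inside the cell, was the flat member of the set. It had 8.54, 8.55 and 8.96 in GM-DC with LPS and 8.50, 8.51 and 8.78 in unstimulated GM-DC, against 8.71, 8.32 and 8.65 in GM-MF with LPS and 8.51, 8.28 and 8.48 in unstimulated GM-MF. All neighbouring groups overlapped. The difference of GM-DC and GM-MF was 0.12 with LPS (95% interval −0.18 to 0.42, adjusted p = 0.575) and 0.17 without LPS (−0.13 to 0.47, adjusted p = 0.429). LPS differed from no LPS by 0.09 in GM-DC (−0.21 to 0.39, adjusted p = 0.842) and 0.13 in GM-MF (−0.17 to 0.43, adjusted p = 0.636). Each of these intervals lay within 2-fold either way, and the sign of 3 of the 5 differences turned under some alternatives.

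Lysosomal cysteine cathepsins, which some clade B serpins also meet, were lower in GM-DC for 9 of 10 listed genes in either condition, beside 15.4% of all genes with LPS and 16.2% without LPS, with medians of −1.12 with LPS and −1.06 without LPS. The largest were Ctsk, the collagen-cutting cathepsin K, at −5.54 ± 0.19 with LPS and −4.72 ± 0.19 without LPS, and Ctsl, cathepsin L, at −3.27 ± 0.14 with LPS and −3.26 ± 0.14 without LPS. After LPS, 1 of the 10 was higher and 1 lower in GM-DC, beside 9.72% of all genes called. In GM-MF 1 was higher, beside 17.4%. The medians were −0.043 in GM-DC and 0.00697 in GM-MF.

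Serping1 encodes the C1 inhibitor. It had 3.63, 4.29 and 3.68 in GM-DC with LPS and 3.22, 3.41 and 3.22 in unstimulated GM-DC, against 5.12, 5.68 and 4.87 in GM-MF with LPS and 3.63, 3.93 and 3.94 in unstimulated GM-MF. The arrays of GM-MF with LPS stood above all others and were the only ones over the array medians, while GM-DC with LPS overlapped unstimulated GM-MF. LPS raised Serping1 in GM-MF by 1.39 ± 0.20 (2.61-fold, adjusted p = 0.000158). In GM-DC the LPS difference was 0.58 ± 0.20 (adjusted p = 0.0908), called with the replicate number as a block (adjusted p = 0.0191) and without GM-MF LPS replicate 2 (0.0406).

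GM-DC had less Serping1 than GM-MF with LPS, by −1.36 ± 0.20 (2.56-fold, adjusted p = 4.85e-05), and without LPS, by −0.55 ± 0.20 (1.47-fold, adjusted p = 0.043). The call without LPS was lost in 8 of 23 alternatives, among them without unstimulated GM-DC replicate 1 (0.11), 2 (0.0531) or 3 (0.108), unstimulated GM-MF replicate 2 (0.119) or 3 (0.124), and GM-MF LPS replicate 1 (0.0532). The responses to LPS differed by −0.81 ± 0.28 (adjusted p = 0.111), called with the replicate block (adjusted p = 0.0259) and without GM-DC LPS replicate 2 (−1.02, adjusted p = 0.0302).

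Of 8 measured complement and contact proteases, the targets of C1 inhibitor, 4 were lower and 0 higher in GM-DC with LPS, and 5 were lower and 0 higher without LPS, beside 15.4% and 16.2% of all genes called lower, with medians of −0.52 and −0.43. At an unadjusted p under 0.05 with limma, 5 and 6 of the 8 passed. C1s1, which encodes complement C1s, had 3.02, 2.82 and 2.64 in GM-DC with LPS and 2.84, 2.59 and 2.70 in unstimulated GM-DC, against 5.85, 5.16 and 5.57 in GM-MF with LPS and 5.27, 4.74 and 5.47 in unstimulated GM-MF. It was lower in GM-DC by −2.70 ± 0.19 with LPS (adjusted p = 1.74e-08) and −2.45 ± 0.19 without LPS (adjusted p = 5.27e-08). LPS called 0 of the 8 in either cell type by limma, with 0 in GM-DC and 2 in GM-MF at an unadjusted p under 0.05. At the adjusted threshold, 9.72% of all genes were called in GM-DC and 17.4% in GM-MF.

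Caspases, cysteine proteases of cell death and inflammation that a few serpins can also block, were counted as well. Of 7 measured, 1 was higher and 4 lower in GM-DC with LPS, and 3 were lower and 0 higher without LPS (0 higher also at an unadjusted p under 0.05 with limma), with medians of −0.87 and −0.051. Beside these counts, 36.3% of all genes were called with LPS and 34.2% without LPS. Casp4, the sensor of intracellular LPS, had 9.76, 9.99 and 9.39 in GM-DC with LPS and 7.92, 7.74 and 7.58 in unstimulated GM-DC, against 10.80, 10.78 and 10.95 in GM-MF with LPS and 9.97, 10.00 and 10.01 in unstimulated GM-MF. LPS raised Casp4 by 1.97 ± 0.14 in GM-DC and 0.85 ± 0.14 in GM-MF (adjusted p = 2.21e-07 and 0.000425), with responses that differed by 1.12 ± 0.19 (adjusted p = 0.00191). In all, LPS called 2 caspases higher and 2 lower in GM-DC and 4 higher and 1 lower in GM-MF, with medians of −0.085 and 0.37. The shares of all genes called for LPS were 9.72% in GM-DC and 17.4% in GM-MF.

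**Figure D4:**
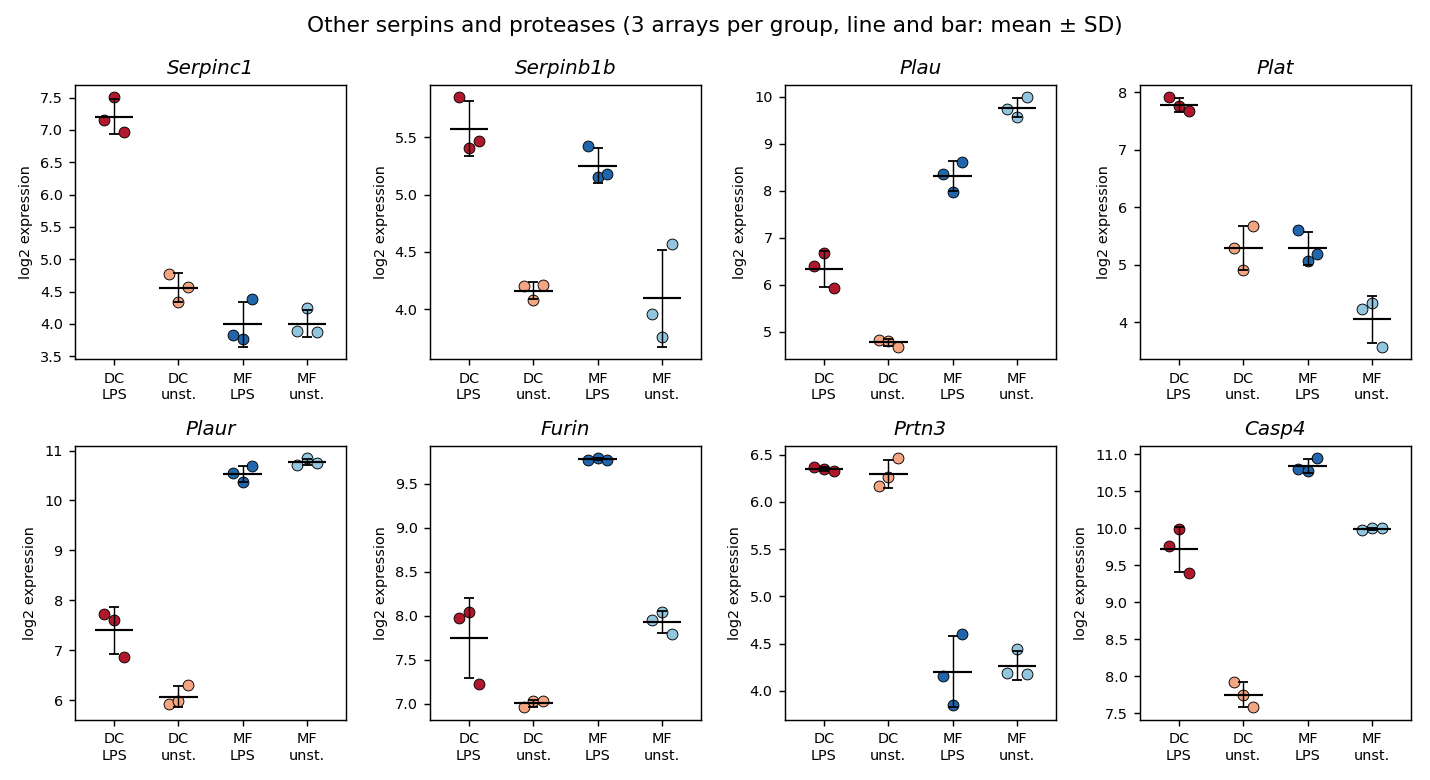
Log2 expression on each of the 12 arrays (points, with lines and bars for the mean ± SD of each group) of 2 other serpins, Serpinc1 and Serpinb1b, and of 6 protease system genes, Plau, Plat, Plaur, Furin, Prtn3 and Casp4. Serpinc1 lies at 6.96 to 7.50 in GM-DC with LPS and at 4.78 or less elsewhere, and Plau is higher with LPS in GM-DC and lower with LPS in GM-MF.

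The 40 other serpins on the array are given beside the 8 as a description. Most of the 40 averaged under the array medians in every group, which limits what their counts can show. Of the 40, 2 were higher and 3 lower in GM-DC with LPS, beside 36.3% of all genes called. Without LPS 1 was higher and 2 lower, beside 34.2%. The medians were −0.068 with LPS and −0.030 without LPS. LPS called 2 higher and 1 lower in GM-DC and 1 higher in GM-MF, beside 9.72% and 17.4% of all genes. The medians for LPS were 0.015 in GM-DC and −0.00138 in GM-MF. The 1 lower was Serpind1, which encodes heparin cofactor II, and its call was lost in 10 of 12 fits that left out 1 array (adjusted p up to 0.183). Of the calls between cell types, those of Serpinc1 without LPS, Serpinb10, Serpina12 and Serpinf1 were each lost without some single arrays. The largest change was in Serpinc1, which encodes antithrombin, the main plasma inhibitor of thrombin.

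Serpinc1 had 7.15, 7.50 and 6.96 in GM-DC with LPS and 4.78, 4.34 and 4.57 in unstimulated GM-DC, against 3.83, 3.77 and 4.39 in GM-MF with LPS and 3.90, 4.24 and 3.87 in unstimulated GM-MF. The GM-DC arrays with LPS stood alone above the rest. LPS raised it by 2.65 ± 0.18 in GM-DC (adjusted p = 2.08e-07), and the difference in GM-MF was −0.0078 ± 0.18 (adjusted p = 0.988). The responses differed by 2.65 ± 0.26 (adjusted p = 1.3e-05), and with LPS GM-DC exceeded GM-MF by 3.21 ± 0.18. The other members of this list that were called, Serpinb1b after LPS apart, differed by less than 2-fold.

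**Figure D5:**
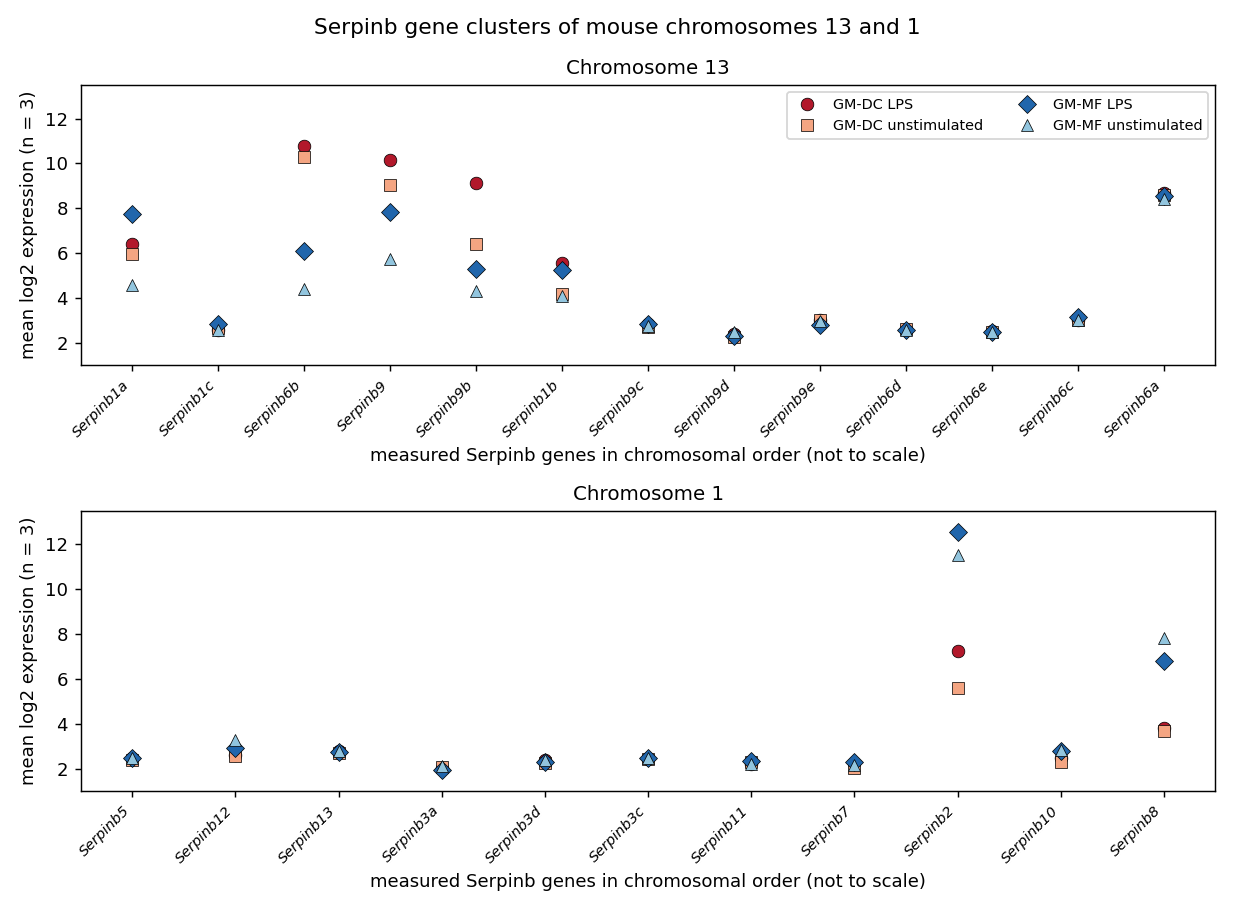
Mean log2 expression (n = 3) of the measured Serpinb genes in each of the 4 groups, in their order along chromosome 13 (top) and chromosome 1 (bottom), in equal steps and not to scale in bases. Serpinb6b, Serpinb9 and Serpinb9b stand side by side with both GM-DC means above both GM-MF means, and Serpinb2 and Serpinb8 have both GM-MF means above both GM-DC means.

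By place, 5 of the 8 serpins lie in the Serpinb cluster of chromosome 13 and 2 in that of chromosome 1, and Serping1 lies on chromosome 2. In the RefSeq gene table of GRCm38.p6 the chromosome 13 cluster holds 17 Serpinb genes, of which 13 were measured. Its order runs Serpinb1a, a Serpinb1 pseudogene, Serpinb1c, Serpinb6b, Serpinb9, Serpinb9b, Serpinb1b and, after the other copies of Serpinb9 and Serpinb6, Serpinb6a. The 3 consecutive genes Serpinb6b, Serpinb9 and Serpinb9b were all higher in GM-DC, and the measured genes of the cluster that are neither among the 8 nor Serpinb1b averaged between 2.27 and 3.13 in the groups. The chromosome 1 cluster holds 12 Serpinb genes, 11 of them measured, and ends with Serpinb2, Serpinb10 and Serpinb8.

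Over the 12 arrays the 8 patterns can be set side by side by Pearson's r, which here mostly follows the split between cell types and is given as a description. Serpinb6b and Serpinb9 had r = 0.937, Serpinb9 and Serpinb9b 0.891, Serpinb2 and Serpinb8 0.910, and Serpinb6b and Serpinb8 −0.993. The 3 genes with the most similar pattern on the array were Slpi (0.993), Ptx3 (0.993) and Saa3 (0.992) for Serpinb2, and Rnf128 (0.997), Creg1 (0.996) and Lrp12 (0.996) for Serpinb8. For Serpinb6b they were Ppp1r15a (0.997), Sh3bp4 (0.997) and Aebp2 (0.996), for Serpinb9 Ankrd33b (0.994), Snn (0.992) and Actn1 (0.991), and for Serpinb9b Nudt9 (0.973), Elavl1 (0.972) and Yes1 (0.972). Serpinb1a was nearest to Sipa1l1 (0.986), Dcp1a (0.967) and E2f5 (0.960), and Serping1 to 1110038F14Rik (0.963), Batf (0.962) and Mmp10 (0.958). The flat gene Serpinb6a had the least similar partners, Kpna1 (0.872), Olfr835 (0.862) and Sox12 (0.855).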

How the data were processed

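RNA of 12 samples was measured on Affymetrix GeneChip Mouse Gene 1.0 arrays, 1 per sample. The log2 values were used as deposited. The submitters' processing notes name RMA and R 3.0.2, with settings and genome build not given in the sources used here. The base 2 was taken from the range of the table, 1.18 to 13.7.

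Of 35556 probe sets, 21789 had 1 symbol, 1621 several and 12146 none in the platform annotation. Entrez numbers of 21698 were found in the RefSeq table and 91 were not. With the probe set of highest mean kept for 999 genes that had several, 19938 genes remained, with no filter on low values. Limma 3.58.1 in R 4.3.3 fitted 4 group means on all 12 arrays (lmFit, contrasts.fit, eBayes without trend, 8 residual degrees of freedom), two-sided, with Benjamini-Hochberg adjustment over the 19938 genes, and it was tested on simulated data. The number of arrays, 3 per group, limits the precision. Promoter windows came from a RefSeq table and were aligned with Biopython 1.88.

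The members and gene lists were chosen with earlier results of these data known. Genes named from the lists were mainly taken from the up to 2 called genes per comparison and direction with the largest difference and no overlap of groups. Not all such genes are named, and the choice among them was made by hand. Epx, Dpp4, S100a9, Elane, Gzmm and Prss34 were named for their levels, outside this rule. Gzmb, and the values of a named gene in its other comparisons, were added after the values were seen. Comparisons of GM-DC with GM-MF share arrays with the LPS comparisons.

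Replicate numbers come from the sample titles. After centring on group means, same-numbered LPS and unstimulated arrays correlated at 0.119 to 0.363 in GM-DC and 0.104 to 0.257 in GM-MF. Arrays with different numbers correlated at −0.250 to 0.164 in GM-DC, which overlaps, and −0.216 to 0.0254 in GM-MF. The numbers may thus pair arrays within a cell type, which the labels do not state. The main fit used no pairing, and a replicate block within each cell type was only an alternative. Between GM-DC and GM-MF the same-numbered range was −0.168 to 0.0117 without LPS and −0.0047 to 0.156 with LPS, so the numbers were not taken to pair there. Alternatives were a replicate block, other scalings, array weights, a trend, all probe sets, only the arrays compared, and each array left out.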

Additional observations from a re-analysis of the deposited data

Results flagged for a closer look

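The LPS responses of GM-DC and GM-MF differed, by the interaction term of the limma fit, for 5 of the 8 serpins, which are a picked set. Of the 40 other serpins 1 was called, Serpinc1. Beside these counts, 7.59% of all genes were called. Differences are of the log2 response of GM-DC minus that of GM-MF. For Serpinb1a the value was −2.78 and over all alternatives it stayed between −2.98 and −2.64. For Serpinb9b it was 1.75, for Serpinb8 1.14, and for Serpinc1 2.65, and leaving out any 1 array kept these calls. For Serpinb6b it was −1.21 and for Serpinb9 −1.01, and these calls were lost without some arrays, as given above. The control arrays of each response are also those of the comparison of cell types without LPS. The causes were not tested.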

How the results depend on the processing

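Of the 40 differences of the 8 serpins (5 comparisons each), 28 kept direction and side of the threshold under every alternative that was run. Over all 971 values, 917 did so, 28 lost a call, 17 gained one and 9 changed sign. All 9 sign changes were of Serpinb6a, never called: GM-DC minus GM-MF with LPS was −0.00121 after cyclic loess and −0.0153 without both GM-DC arrays numbered 3 (chosen after seeing the data), and with each array left out it ran from −0.0153 to 0.20. Its LPS difference in GM-DC ran from −0.0516 to 0.18 with 1 array left out, and its difference of responses from −0.18 to 0.0481.

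The replicate block within each cell type, also chosen after seeing the data, called 5 serpins for LPS in GM-DC in place of 3, adding Serpinb1a (adjusted p = 0.0394) and Serping1 (0.0354), and also called Serpinb2 in GM-MF (0.00155) and Serping1 for the difference of responses (0.0448). With the replicate number as a block over all arrays Serping1 was called there (0.0191), Serpinb2 in GM-MF (0.0336) and Serping1 for the difference of responses (0.0259). Neither replicate block changed another call of a serpin among the 8. The difference of responses was called for 3 serpins when p-values were adjusted over all probe sets, and for 3 to 5 with 1 array left out, the lowest without GM-DC LPS replicate 1 and without GM-MF LPS replicate 1. Asking also for 2-fold, 2533 genes were called between cell types without LPS, 2572 with LPS, 415 for LPS in GM-DC, 633 for LPS in GM-MF and 649 for the difference of responses. Other scalings moved the median of all genes by under 0.1. Where a call changed, the cause was not tested. Raw scanner files were not used, so signal over background is unknown and limits the values under the array medians. These are Serpinb8 in GM-DC, Serping1 outside GM-MF with LPS, and some arrays of unstimulated GM-MF. The latter are Serpinb6b in replicates 1 and 3 (4.32 and 3.80), Serpinb1a in 2 and 3 (4.33 and 4.40) and Serpinb9b in 1 (4.07). Differences of these 3 genes against unstimulated GM-MF, and their differences of responses, rest partly on such values.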

Other observations

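On the array, 5 further probe sets name several serpins at once and so name no gene. Both that name the Serpina1 group averaged between 3.13 and 4.36 in the 4 groups, and the 3 that name Serpinb9d, Serpinb9e, Serpinb9f and Serpinb9g averaged between 2.78 and 3.38, all under the array medians.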
